A study of Mus musculus with 8 samples.

Results

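The potassium channel genes described here are the genes of the mouse count table whose symbol is Kcn followed by the letters and the number of a subfamily member. There were 92 of them among 49315 genes. They code for the pore-forming subunits of potassium channels and for the auxiliary subunits that carry the same root name. The libraries were made from embryonic hearts of the C57BL/6 mouse strain at embryonic day 9.5. Of the 8 libraries, 4 were labelled male and 4 female, and no other allele, treatment or age distinguished them. Sex had been read by the submitters from the Sry gene in tissue other than the heart. Nothing in the labels tells whether single hearts or pools were sequenced, or whether embryos were littermates, so every p-value measures only the spread between libraries.

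Potassium channels let potassium leave the cell and so set the resting potential and end the action potential of a heart muscle cell. Voltage-gated pores open on depolarisation. Inward rectifiers and two-pore leak channels hold the membrane near rest, and calcium-activated channels couple it to calcium. Silent subunits form no channel alone and change the gating of other voltage-gated pores, and auxiliary subunits tune pores in the same complex. The embryonic heart beats at this stage as a looped tube, before it has separate chambers.

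Total counts ranged from 20105913 to 51134291 per library, of which 12716 to 35829 fell on potassium channel genes. All 11 cardiomyocyte markers had a mean of at least 1 CPM (the usual scaled count, here the count over the library total after TMM scaling). Their summed level ranged from 43086 to 66979 CPM in male and from 39615 to 49839 CPM in female libraries. The 5 skeletal muscle markers together stayed at or below 0.291 CPM in every library. Male replicate 2 and Female replicate 4 stood apart. Male replicate 2 had the highest value of the 8 libraries for 31.9% and the lowest for 33.4% of the 16377 genes tested, the lowest mitochondrial share of counts (0.707%, against up to 1.72% elsewhere) and the highest summed level of 12 foregut and pharyngeal epithelium markers (558 CPM). It also had the highest summed level of the cardiomyocyte markers (66979 CPM) and of 5 smooth muscle markers (5953 CPM). Its sum of 9 endocardial and endothelial markers (618 CPM) was the lowest. Female replicate 4 had the highest value for 21.1% and the lowest for 21.6% of the genes tested, and the highest mitochondrial share. The other 6 libraries were each highest for 4.61% to 10.1% and lowest for 4.696% to 11.4%. Female replicate 1 had the highest summed level of 10 hepatic and yolk sac markers, 84.1 CPM, and the next was Male replicate 2 with 38.1 CPM. That sum was 2.89 to 38.1 CPM in male libraries and 2.07 to 4.76 CPM in the other 3 female libraries. The foregut sum was 234 to 558 CPM in male and 243 to 464 CPM in female libraries. The part of these differences in the values below was not tested except where a value without a library is given. In whole hearts, fewer cells of a type and less RNA per cell cannot be told apart.

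Of the 92 genes, 54 passed the filter on low counts and were tested, 58.7%, against 33.2% of all genes. A mean of at least 1 CPM was reached by 41 genes and a mean of at least 10 CPM by 10. Counts were present in every library for 66. Of the rest, 3 genes (Kcna10, Kcnk9 and Kcnk18) had 0 counts in all libraries, which allows up to 0.0108 CPM at a floor of 3 counts over all 8 libraries. A further 14 had between 1 and 9 counts in total. Floors and intervals for counts cover counting error only.

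To compare genes with each other, CPM was divided by the kilobases of exon that the count tables list for each gene (RPKM). On this scale the 92 genes summed to 158 ± 6.80 RPKM (mean ± SD, n = 8). The 3 highest genes, Kcng2, Kcnh2 and Kcnj5, held 56.8% ± 1.77 of that sum, and the 8 highest held 79.9%. Levels dropped steeply below them, to 3.58 RPKM for Kcne1 in eighth place. Unless an n is given, RPKM values below are means ± SD over all 8 libraries taken as one set.

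**Figure D1:**
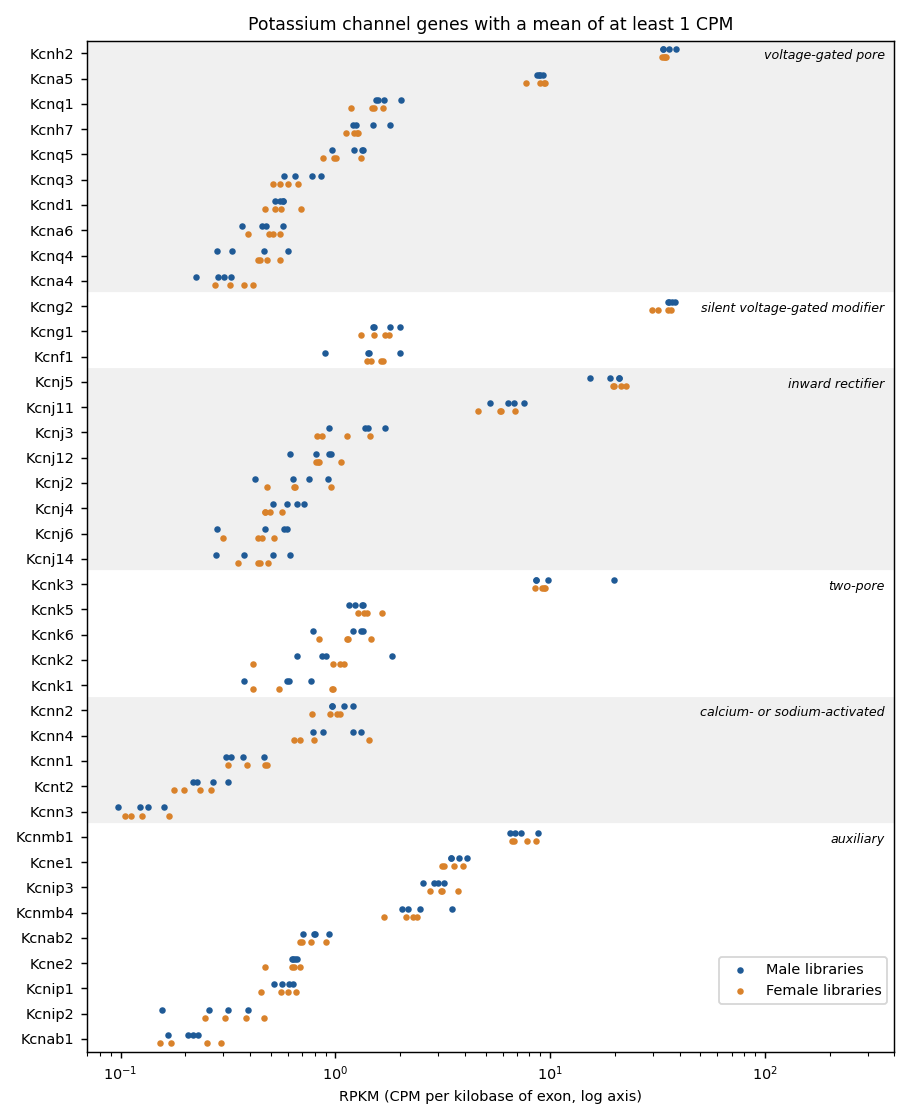
RPKM on a log axis (CPM per kilobase of exon) of 40 potassium channel genes with a mean of at least 1 CPM, grouped by channel class. Each point is 1 library, with male libraries above female libraries in each row; Kcnh2, Kcng2 and Kcnj5 lie to the right, and male and female points overlap in every row.

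The stretches of DNA just upstream of 3 genes are shown because these genes lie near the top or the bottom of the range of levels. Kcnh2 is the highest gene of the set with an entry in the promoter table used. Kcnj5 and Kcnj1 are inward rectifier genes that lie next to each other on chromosome 9, 28142 bases apart, and near opposite ends of that range. Kcnj5 averaged 19.9 RPKM, while Kcnj1, known from the kidney, had 1 count in all 8 libraries (0.000686 RPKM). Each sequence is the 250 bases before the RefSeq start, on build GRCm38.p6, 5′ to 3′ on the strand of the gene, with every CG dinucleotide in capitals.
Kcnh2 (chr5:24329592-24329841, minus strand): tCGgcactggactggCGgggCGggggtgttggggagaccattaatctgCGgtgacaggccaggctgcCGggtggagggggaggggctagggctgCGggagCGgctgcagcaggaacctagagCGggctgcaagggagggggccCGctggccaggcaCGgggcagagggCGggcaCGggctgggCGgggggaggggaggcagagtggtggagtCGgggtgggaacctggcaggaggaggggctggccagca
Kcnj5 (chr9:32344345-32344594, minus strand): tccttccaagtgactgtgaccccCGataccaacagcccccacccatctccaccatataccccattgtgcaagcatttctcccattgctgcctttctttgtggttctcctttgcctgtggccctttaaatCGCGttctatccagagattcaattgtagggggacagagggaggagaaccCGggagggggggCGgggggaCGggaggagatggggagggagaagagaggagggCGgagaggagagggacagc
Kcnj1 (chr9:32393735-32393984, plus strand): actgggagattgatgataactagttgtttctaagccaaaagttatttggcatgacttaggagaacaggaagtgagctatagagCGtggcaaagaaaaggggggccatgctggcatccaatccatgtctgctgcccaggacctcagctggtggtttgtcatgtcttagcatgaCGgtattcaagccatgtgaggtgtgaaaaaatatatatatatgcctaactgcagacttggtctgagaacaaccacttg
The starts of Kcnh2 and Kcnj1 lie inside the longer gene spans of the count tables, so other starts of these genes are not shown. There were 14 CG dinucleotides upstream of Kcnh2, 7 upstream of Kcnj5 and 2 upstream of Kcnj1 (the motif CG reads the same on both strands and cannot overlap itself). Of 32851 RefSeq promoter entries, 29.4% had at least 14, 46.3% at least 7 and 81.2% at least 2. Entries were found for 67 of the 92 genes. Some of these genes have several entries. Over the 92 entries of the 67 genes the median was 7 CG dinucleotides, against 6 over all 32851 entries. With the first entry of each gene, the median was 9 over 37 genes tested between the sexes and 8 over 30 not tested. The 3 genes shown were picked by level, and a link between CG dinucleotides and level was not tested.

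By class, voltage-gated pores held the largest share of summed RPKM, 32.7% ± 1.07 from 30 genes. Silent modifiers followed with 24.3% ± 1.07 from 10 genes, and inward rectifiers with 19.3% ± 2.12 from 15. Auxiliary subunits held 12.4% ± 0.53 from 15 genes and two-pore channels 9.42% ± 2.36 from 14. Calcium- or sodium-activated channels held 1.78% ± 0.17 from 8. By summed CPM, without division by length, inward rectifiers (all Kcnj) stood above silent modifiers (Kcng among them), at 20.4% against 18.2%. Kcng, which leads the subfamilies by RPKM below, thus ranked under Kcnj by CPM. It also ranked under Kcnh by CPM, where Kcnh2 averaged 168 CPM and Kcng2 104 CPM. A single gene could make up nearly all of a subfamily: within the Kcng subfamily Kcng2 made up 95.5% of the summed RPKM, and within the Kcnh subfamily Kcnh2 made up 95.5%. The share of two-pore channels was the least even, from 7.81% to 15.1%, with Male replicate 2 at the top, and its mean was 8.602% without that library. Ranked by summed RPKM, the subfamilies ran Kcng (36.6 ± 2.84), Kcnh (36.2 ± 1.76), Kcnj (30.4 ± 3.25), Kcnk (14.9 ± 4.07), Kcna (10.2 ± 0.696) and Kcnmb (9.87 ± 0.707). Below 5 RPKM came Kcne (4.40 ± 0.378), Kcnip (4.001 ± 0.435), Kcnq (3.83 ± 0.451), Kcnn (2.49 ± 0.309), Kcnf (1.49 ± 0.315) and Kcnab (1.31 ± 0.141). Among those under 1 RPKM were Kcnd (0.810 ± 0.0813), Kcnc (0.392 ± 0.0820), Kcnt (0.244 ± 0.0452), Kcns (0.185 ± 0.0715), Kcnv (0.0824 ± 0.0410), Kcnma (0.0375 ± 0.0172) and Kcnu (0.0313 ± 0.0111).

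Among voltage-gated pores, Kcnh2 (ENSMUSG00000038319; chr5:24319589-24351604, minus strand) dominated. It codes for the ERG channel, the pore of the rapid delayed rectifier current that ends the cardiac action potential. Kcnh2 had 187, 162, 162 and 172 CPM in Male replicates 1 to 4, against 160.4, 167, 165 and 165 CPM in Female replicates 1 to 4. Male replicate 1 was the highest library, the other 7 lay close together, and the sexes overlapped. At 34.6 ± 1.77 RPKM it had the smallest spread of the potassium channel genes of at least 1 CPM, an SD of 0.0713 on the log2 CPM scale, where counting error alone gives 0.0200. Kcna5 (chr6:126532551-126535412, minus strand), the pore of the ultrarapid delayed rectifier known from atrial muscle, was the second voltage-gated pore at 8.92 ± 0.565 RPKM. Kcna5 had 25.4, 25.8, 24.8 and 26.6 CPM in Male replicates 1 to 4, against 22.0, 26.9, 25.6 and 27.1 CPM in Female replicates 1 to 4. Female replicate 1 was the lowest library and the other 7 lay close together. Its neighbours on chromosome 6, Kcna1 and Kcna6, averaged 0.00815 and 0.477 RPKM.

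Kcnq1 (the pore of the slow delayed rectifier; chr7:143106362-143427042, plus strand) averaged 1.58 ± 0.231 RPKM, and the geometric mean of the Kcnh2 to Kcnq1 ratio was 22.0 (19.1 to 27.9 over the libraries). Kcnq1 had 8.23, 6.32, 6.50 and 6.87 CPM in Male replicates 1 to 4, against 4.86, 6.23, 6.03 and 6.84 CPM in Female replicates 1 to 4. Male replicate 1 was the highest and Female replicate 1 the lowest, and the groups overlapped. The exons of Kcnq1 share 121 bases with the antisense gene Kcnq1ot1, which had 33592 counts against 1796 for Kcnq1. Where counting ignored strand, the Kcnq1 count over those bases is uncertain. Kcnh7, an ERG relative known from the nervous system, averaged 1.33 ± 0.215 RPKM and ranged over 1.13 to 1.79 RPKM. It was eighth by CPM and only fifteenth by RPKM, because its listed exons span 15226 bases; 4.57% of them overlap Gca on the opposite strand, which had 2548 counts against 5557 for Kcnh7.

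Channels of the mature ventricle's transient outward current were low. The Kcnd genes code for fast pores of this kind: Kcnd1 averaged 0.558 ± 0.0639 RPKM, Kcnd2 0.168 ± 0.0365 RPKM and Kcnd3 0.0843 ± 0.0184 RPKM. Kcna4, the slow transient outward pore, averaged 0.316 ± 0.0586 RPKM. Kcnip2, an auxiliary subunit of Kcnd pores, averaged 0.316 ± 0.0971 RPKM. Per length it was above both Kcnd2 (geometric mean ratio 1.84, 1.03 to 4.56) and Kcnd3 (3.65, 1.77 to 6.69) in every library. Counts per library were few: 16 to 80 for Kcnip2, 18 to 49 for Kcnd2 and 15 to 62 for Kcnd3. In Male replicate 1, where both ratios were lowest, Kcnip2 had 16 counts, against 23 for Kcnd2 and 25 for Kcnd3. The order there rests on the division by exon length. Of the other voltage-gated pores, Kcnq3, known from the neuronal M-current, averaged 0.651 ± 0.118 RPKM. The fast-gating Kcnc4, known from neurons, averaged 0.176 ± 0.0526 RPKM.

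Per kilobase of exon, a single silent modifier reached the level of the highest pore. Kcng2 (ENSMUSG00000059852; chr18:80294546-80364254, minus strand), which forms no channel alone and joins other voltage-gated pores, had 107, 114, 109.7 and 106 CPM in Male replicates 1 to 4, against 88.6, 106, 109.5 and 95.2 CPM in Female replicates 1 to 4. Female replicates 1 and 4 were the 2 lowest and the other 6 libraries lay between 106 and 114 CPM, so the sexes overlapped. Per length, Kcng2 averaged 34.9 ± 2.78 RPKM and could not be ordered against Kcnh2: it was above Kcnh2 in 4 of the 8 libraries, with a mean log2 ratio of 0.01 ± 0.13 (SD). By CPM, Kcng2 (mean 104) lay below Kcnh2 (mean 168) in every library, so the equal level rests on the division by exon length. The exons of Kcng2 overlap D330025C20Rik on the opposite strand over 9.10% of their length; that gene had 1717 counts, against 28649 for Kcng2. Other silent subunits were lower: Kcng1 averaged 1.64 ± 0.217 RPKM, Kcnf1 1.49 ± 0.315 RPKM and Kcnv2, known from photoreceptors, 0.0725 ± 0.0387 RPKM. Kcnf1 ranged over 0.894 to 2.01 RPKM, with Male replicate 1 the highest and Male replicate 2 the lowest library.

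Among inward rectifiers, Kcnj5, Kcnj11 and Kcnj3 stood above the pores of the resting current. Kcnj5 (ENSMUSG00000032034; chr9:32314707-32344350, minus strand) pairs with Kcnj3 in the acetylcholine-gated channel of atrial and pacemaker cells. Kcnj5 had 98.3, 72.0, 98.0 and 88.6 CPM in Male replicates 1 to 4, against 92.5, 99.9, 92.2 and 105 CPM in Female replicates 1 to 4. Male replicate 2 was the lowest library and Female replicate 4 the highest, and the groups overlapped. Kcnj3 (chr2:55435970-55598145, plus strand) had 7.17, 4.87, 8.84 and 7.40 CPM in Male replicates 1 to 4, against 4.30, 5.90, 4.51 and 7.57 CPM in Female replicates 1 to 4. Male replicate 2 and Female replicates 1 and 3 were the 3 lowest. At 19.9 ± 2.15 RPKM and 1.21 ± 0.320 RPKM, the pair was unequal in every library, with a Kcnj5 to Kcnj3 ratio of 16.9 (geometric mean; 12.3 to 23.9). The exons of Kcnj3 overlap Gm26794 on the opposite strand over 31.1% of their length, but that gene had 65 counts in all.

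Kcnj11 (chr7:46093953-46100764, minus strand), the pore of the ATP-sensitive channel of heart muscle and pancreatic beta cells, averaged 6.14 ± 0.938 RPKM. Kcnj11 had 23.3, 19.3, 27.7 and 25.0 CPM in Male replicates 1 to 4, against 17.01, 21.5, 21.6 and 25.2 CPM in Female replicates 1 to 4. Male replicate 3 was the highest and Female replicate 1 the lowest library. The other pore of this family, Kcnj8, known from vascular smooth muscle, had 1 to 8 counts per library and averaged 0.0467 ± 0.0401 RPKM. The Kcnj11 to Kcnj8 ratio was 173 (geometric mean) but ranged from 54.3 to 740.1, with so few counts for Kcnj8. The sulfonylurea receptors that complete the channel were both present: Abcc9 averaged 4.32 ± 1.16 RPKM and Abcc8 0.452 ± 0.0554 RPKM. Per length, Kcnj11 stood at 1.45 times Abcc9 (1.204 to 1.76) and at 13.5 times Abcc8 (10.2 to 17.9). By CPM, Abcc9 (mean 36.1) stood above Kcnj11 (mean 22.6) in every library, so their order rests on the division by exon length.

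Pores of the strong inward rectifier current, which holds the resting potential of mature ventricular cells, were each under 1 RPKM: Kcnj12 averaged 0.858 ± 0.130 RPKM, Kcnj2 0.683 ± 0.189 RPKM and Kcnj4 0.561 ± 0.0913 RPKM. The Kcnj5 to Kcnj2 ratio was 30.0 (geometric mean; 22.6 to 41.1). Kcnj2 had 4.11, 2.30, 5.04 and 3.47 CPM in Male replicates 1 to 4, against 2.62, 3.53, 3.497 and 5.18 CPM in Female replicates 1 to 4. Female replicate 4 and Male replicate 3 were the highest and Male replicate 2 the lowest, a 2.25-fold range within which the sexes overlapped.

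The two-pore class was led by Kcnk3 (ENSMUSG00000049265; chr5:30588170-30625271, plus strand), an acid-sensitive leak channel, at 10.4 ± 3.84 RPKM. Kcnk3 had 34.1, 78.8, 34.0 and 38.7 CPM in Male replicates 1 to 4, against 36.5, 37.2, 33.8 and 37.4 CPM in Female replicates 1 to 4. Male replicate 2 was about 2-fold above all the others, which lay between 33.8 and 38.7 CPM. Kcnk2, a stretch-activated leak channel, showed the largest spread of the genes of at least 1 CPM, an SD of 0.605 in log2 CPM against 0.118 from counting error. Kcnk2 had 4.28, 9.03, 3.27 and 4.47 CPM in Male replicates 1 to 4, against 5.42, 4.82, 5.17 and 2.05 CPM in Female replicates 1 to 4. Male replicate 2 was again the highest library, and Female replicate 4 was the lowest. On the opposite strand, the exons of Kcnk2 overlap A430027H14Rik over 12.2% of their length (233 counts, against 1300 for Kcnk2) and those of Kcnk3 overlap Gm9899 over 5.76% (579 counts, against 11562 for Kcnk3). Of the other leak channels, Kcnk5, opened by alkaline pH, averaged 1.34 ± 0.148 RPKM and Kcnk1 0.657 ± 0.229 RPKM, with Kcnk1 ranging over 0.376 to 0.975 RPKM.

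Calcium- and sodium-activated channels were low. The small-conductance channels Kcnn2, Kcnn1 and Kcnn3 averaged 1.004 ± 0.127 RPKM, 0.391 ± 0.0731 RPKM and 0.128 ± 0.0248 RPKM, and the sodium-activated Kcnt2 0.238 ± 0.0437 RPKM. Kcnn4, the calcium-activated channel of red blood cells, is named after its values were seen. Kcnn4 had 6.19, 4.02, 6.76 and 4.47 CPM in Male replicates 1 to 4, against 3.498, 3.28, 7.30 and 4.08 CPM in Female replicates 1 to 4. Female replicate 3 and Male replicates 3 and 1 were the 3 highest. Those are also the 3 libraries with the highest summed level of 9 erythroid markers, 12485 CPM in Female replicate 3, 9834 CPM in Male replicate 3 and 7587 CPM in Male replicate 1, against 4712 to 7174 CPM in the others; the part of blood cells in the Kcnn4 values was not tested. Kcnma1, the large-conductance calcium-activated pore, had 4 to 16 counts per library and averaged 0.0375 ± 0.0172 RPKM.

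Auxiliary subunits differed widely in level from their pores. Kcnmb1 (ENSMUSG00000020155; chr11:33963013-33973641, plus strand), the subunit that raises the calcium sensitivity of Kcnma1 in smooth muscle, was the sixth gene of the set at 7.41 ± 0.887 RPKM. Kcnmb1 had 36.8, 27.2, 30.6 and 28.8 CPM in Male replicates 1 to 4, against 27.7, 35.9, 28.5 and 32.7 CPM in Female replicates 1 to 4. Male replicate 1 and Female replicate 2 were the highest and Male replicate 2 the lowest. Its ratio to Kcnma1 had a geometric mean of 211 and ranged from 89.5 to 299. Kcnmb4, a second subunit of that family known from neurons, averaged 2.34 ± 0.524 RPKM and stood at 65.6 times Kcnma1 (32.4 to 139). The exons of Kcnmb4 overlap Kcnmb4os2 on the opposite strand over 20.8% of their length, with 514 counts for that gene and 2118 for Kcnmb4. Kcnmb1 lies within the span of Kcnip1 on the opposite strand of chromosome 11, and Kcnip1 averaged 0.574 RPKM; their exons did not overlap in the count tables. The 5 smooth muscle markers summed to 4617 to 5953 CPM in male and 4633 to 5796 CPM in female libraries.

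Kcne1 (chr16:92346001-92359468, minus strand), which slows Kcnq1 to form the slow delayed rectifier, averaged 3.58 ± 0.338 RPKM. Kcne1 had 12, 11.1, 11 and 13.1 CPM in Male replicates 1 to 4, against 10.1, 12.6, 10.2 and 11.4 CPM in Female replicates 1 to 4. The values lay within a 1.30-fold range and overlapped between the sexes. In every library Kcne1 exceeded Kcnq1, by 2.27 times (geometric mean; 1.87 to 2.65). Kcne2, a small subunit proposed to accompany Kcnh2, stood far below it at 0.625 ± 0.0658 RPKM, a ratio of 0.0180 (0.0142 to 0.0198). Kcnip3, a calcium-binding subunit of Kcnd channels, averaged 3.05 ± 0.339 RPKM, and Kcnab2, a cytoplasmic subunit of Kcna channels, 0.789 ± 0.0945 RPKM. The 12 pairs compared in this way were chosen after levels had been seen, and a ratio of messenger RNA is given without a test.

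**Figure D2:**
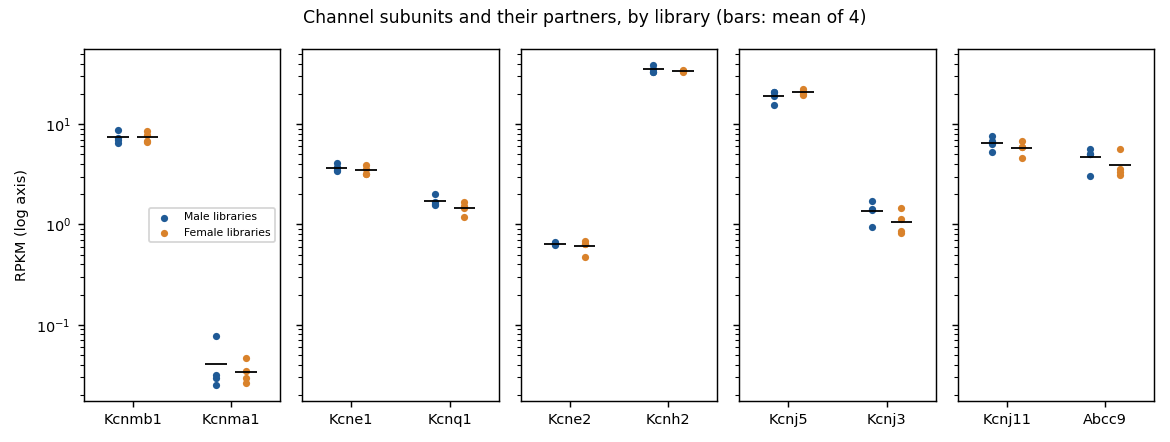
RPKM on a log axis of 5 pairs of subunits, 1 panel a pair; points are libraries, with male libraries left of female libraries, and bars are means of 4. Kcnmb1 lies at least 89.5 times above Kcnma1 in every library, whereas Kcnj11 and Abcc9 lie within 2-fold.

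By RPKM, the order of the leading genes held in every library at some places and not at others. Kcnh2 exceeded Kcnj5 in 8 of 8 libraries (mean log2 ratio 0.80 ± 0.17, SD), and Kcna5 exceeded Kcnmb1 in 8 of 8 (0.27 ± 0.16). By CPM, Kcnmb1 (mean 31.0) stood above Kcna5 (mean 25.5) in every library. The order of these genes thus rests on the division by exon length, which is the same in each library. Kcnk3 and Kcna5, next to each other by mean, were in that order in only 3 of 8 libraries (0.16 ± 0.41), and Kcnk3 reached 19.8 RPKM in Male replicate 2. From Kcng1 in eleventh place to Kcnj3 in sixteenth, no neighbour differed from the next by more than the SD of their log2 ratio, and each order held in 5 or 6 of 8 libraries.

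Between libraries, the tested potassium channel genes had a median SD of 0.265 in log2 CPM, against 0.238 over all genes tested. Among genes with a mean of at least 1 CPM the medians were 0.249 for 41 potassium channel genes and 0.205 for 13608 tested genes. Counting error alone gives a median SD of 0.118 for the potassium channel genes and 0.0540 for all genes, and the median ratio of observed to counting SD was 1.99 and 3.30. Of the 41, 14 had an SD under 0.2, 14 had 0.3 or more, and 28 varied less than 2-fold between their highest and lowest library. The steadiest were Kcnh2 (0.0713), Kcna5 (0.0952), Kcng2 (0.120) and Kcne1 (0.135). Kcnk1 (0.490) and Kcnip2 (0.461) were among the most variable after Kcnk2. These are low genes, for which counting error gives 0.213 and 0.246. Kcnk3 was the exception among abundant genes, with 0.407 against 0.0402 from counting error.

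**Figure D3:**
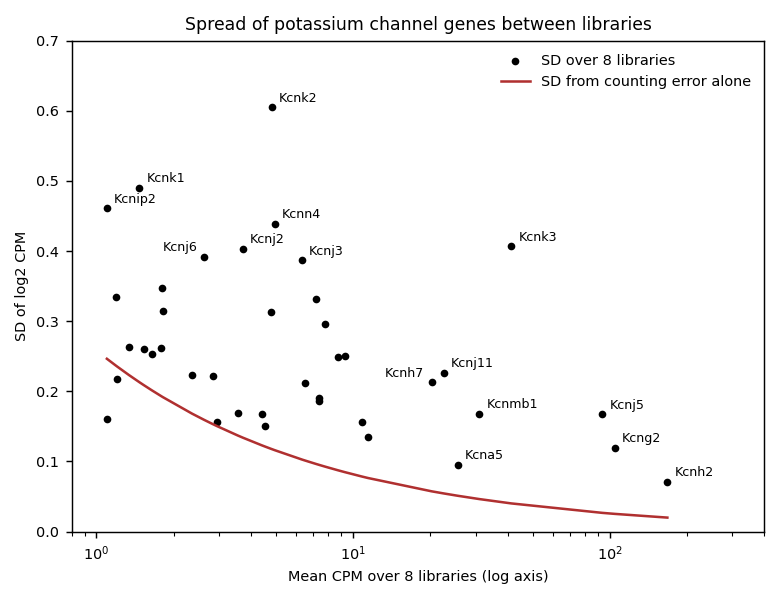
SD of log2 CPM over the 8 libraries against mean CPM (log axis) for 40 potassium channel genes with a mean of at least 1 CPM; points are genes and the line is the SD that counting error alone gives. The SD is 0.0713 for Kcnh2 and 0.605 for Kcnk2, and Kcnk3 lies far above the line for its level.

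The libraries did not share the extremes evenly. Of the 54 tested genes, Male replicate 2 was highest for 12 (22.2%) and lowest for 10 (18.5%), against 31.9% and 33.4% over all genes tested. Female replicate 1 was lowest for 16 (29.6%), against 11.4% over all genes tested. Female replicate 2 was highest for 10 (18.5%), against 4.61% over all genes tested. Female replicate 4 was highest for 7 (12.96%) and lowest for 5 (9.26%), against 21.1% and 21.6%. The summed level of the 92 genes was also lowest in Female replicate 1, at 599.9 CPM, with the other 7 libraries at 644 to 688 CPM. The same library had the highest hepatic and yolk sac marker sum (84.1 CPM) and the highest foregut sum of the female libraries (464 CPM). Male replicate 2 had a higher foregut sum (558 CPM) and the next hepatic and yolk sac sum (38.1 CPM), but its 92 genes summed to 684 CPM. The part of these markers in the channel levels was not tested. Kcnj11, Kcnj3, Kcnk6, Kcnq1 and Kcnq5 had the same 4 highest libraries, Male replicates 1, 3 and 4 and Female replicate 4. This set was chosen after the values were seen, and the share of the 54 with it highest (9.26%) is near the 8.08% of all genes tested. For Kcnip3, Kcnk2 and Kcnn1 the same 4 libraries were the lowest (5.56% of the 54, against 9.02% of all genes tested). Abcc9, the receptor subunit that joins Kcnj11, had those 4 libraries highest, as Kcnj11 did, with 42.2, 25.6, 47.7 and 42.2 CPM in Male replicates 1 to 4, against 25.9, 30.0, 28.0 and 47.6 CPM in Female replicates 1 to 4.

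**Figure D4:**
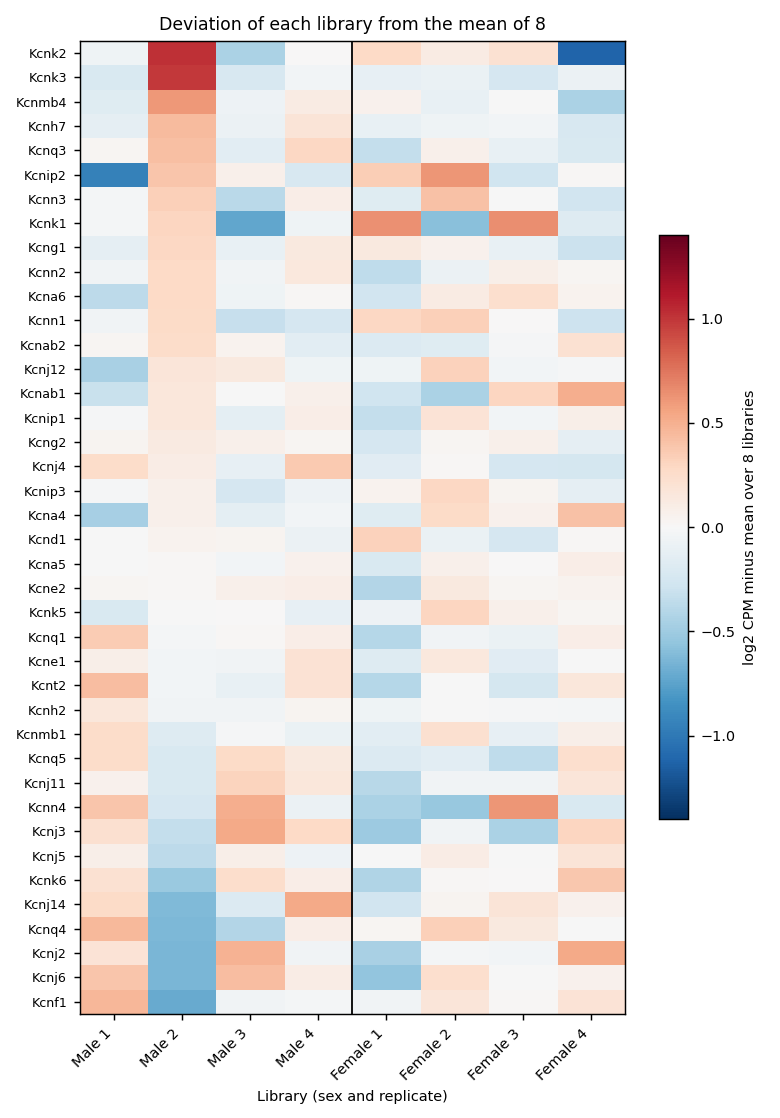
Deviation of log2 CPM in each library from the mean of 8, for 40 potassium channel genes with a mean of at least 1 CPM, with male libraries left of female libraries and genes sorted by Male replicate 2. Deviations run from -1.12 to 1.02 log2 units; Kcnk2 and Kcnk3 are the highest in Male replicate 2 and Kcnf1 is the lowest there.

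The study's comparison was male against female hearts. No potassium channel gene passed the test between the sexes: edgeR's quasi-likelihood test called 0 of 54 at a Benjamini-Hochberg adjusted p below 0.05, where 0.0366% of all genes tested were called. The lowest adjusted p among them was 0.9995. At an unadjusted p below 0.05 edgeR again gave 0 of 54, where 2.24% of all genes tested passed. Limma-voom called 0, against 0.0427% of all genes, and gave 0 at an unadjusted p below 0.05, against 2.5%. DESeq2 called 0 of 89, against 0.0301% of all genes, and gave 1 at an unadjusted p below 0.05, against 1.93%. For none of the 54 did the 4 male and 4 female values fail to overlap, where 2.25% of all genes tested did not overlap.

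The differences were small in both directions. The log2 fold change, male minus female, lay between -0.36 and 0.36. It was positive for 32 genes and negative for 22, a positive share of 59.3% against 52.9% over all genes tested. The median was 0.05, against 0.01 over all genes tested. The 95% interval lay within 1.5-fold in either direction for 22 genes and within 2-fold for 45, so larger differences in those genes lay outside their intervals, while for the other 9 a 2-fold difference did not. By class the medians ran from -0.05 in auxiliary subunits, with 5 of 12 positive, to 0.17 in calcium- or sodium-activated channels, with 4 of 5 positive. Summed over all 92 genes, the level was 674 ± 14.9 CPM in male and 642 ± 30.0 CPM in female libraries (SD, n = 4 each). Of the cell type markers, 0 were called by edgeR in the same contrast, where 11 of 12 foregut and pharyngeal markers had lower estimates in males (median log2 fold change -0.74) and 10 of 11 cardiomyocyte markers higher ones (median 0.23). Their part in the values of the potassium channel genes was not tested.

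Of the leading genes, Kcnh2 averaged 171 ± 11.7 CPM in male and 164 ± 2.91 CPM in female libraries, a log2 fold change of 0.05 ± 0.08 (SE; 95% interval -0.12 to 0.23). Kcng2 averaged 109 ± 3.43 CPM in male and 99.9 ± 9.70 CPM in female libraries (0.13 ± 0.09; interval -0.07 to 0.32), and Kcnj5 89.2 ± 12.4 CPM in male and 97.4 ± 6.21 CPM in female libraries (-0.13 ± 0.11; interval -0.38 to 0.12). For these 3 genes the whole interval lies within 1.5-fold in either direction. Kcna5 (0.01 ± 0.09), Kcnmb1 (-0.02 ± 0.12), Kcnj11 (0.16 ± 0.15), Kcne1 (0.09 ± 0.11) and Kcnip3 (-0.13 ± 0.12) had estimates within 0.2 of 0. The largest log2 fold change, 0.36 ± 0.26 for Kcnk3, was that of the gene with 1 outlying library. Without Male replicate 2 it was -0.03, and that of Kcnk2, 0.29 ± 0.38 with all libraries, was -0.10. Without Female replicate 4 the log2 fold change of Kcnk2 was 0.05.

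The genes with the smallest p in either direction did not pass either. Kcnq3 was the nearest with 9.32, 12.2, 8.26 and 11.2 CPM in Male replicates 1 to 4, against 7.29, 9.61, 8.56 and 7.94 CPM in Female replicates 1 to 4; Male replicates 2 and 4 were highest, but Male replicate 3 lay below Female replicates 2 and 3. Its log2 fold change was 0.30 ± 0.15. Kcnh7 (0.23 ± 0.13) and Kcnj4 (0.31 ± 0.19) followed on the male side. Without Male replicate 2 the estimate for Kcnh7 was 0.11. On the other side stood Kcnd3 (-0.35 ± 0.24), Kcna4 (-0.29 ± 0.21) and Kcnk5 (-0.17 ± 0.13). Without Female replicate 4 the estimates were -0.21 for Kcnd3 and -0.19 for Kcna4, and without Female replicate 2 that of Kcnk5 was -0.09. Kcnd3 had 0.850, 0.699, 0.663 and 0.634 CPM in Male replicates 1 to 4, against 0.961, 0.665, 0.862 and 1.13 CPM in Female replicates 1 to 4. Female replicates 4, 1 and 3 were the 3 highest, Male replicate 1 lay just below them and Female replicate 2 below Male replicate 2.

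Kcnd1 is the X-linked tested gene of the set (chrX:7822289-7838280, plus strand) and had 2.92, 3.03, 3.005 and 2.77 CPM in Male replicates 1 to 4, against 3.66, 2.76, 2.48 and 2.96 CPM in Female replicates 1 to 4. Female replicate 1 was the highest and Female replicate 3 the lowest, so the 4 male values lay inside the female range, and its log2 fold change was -0.02 ± 0.16. Among other named genes, log2 fold changes above 0.2 were 0.33 ± 0.23 for Kcnj3, 0.29 ± 0.38 for Kcnk2, 0.27 ± 0.19 for Kcnmb4, 0.23 ± 0.21 for Kcnt2, 0.23 ± 0.27 for Kcnd2, 0.22 ± 0.14 for Kcnq1 and 0.30 ± 0.49 for Kcnv2. Kcnn4 and Kcnq5, named after their values were seen, had 0.26 ± 0.28 and 0.21 ± 0.16. Log2 fold changes below -0.2 were -0.36 ± 0.36 for Kcne3, -0.33 ± 0.32 for Kcnip2 and -0.27 ± 0.33 for Kcnk1. Others were closer to 0: 0.18 ± 0.33 for Kcnc4, 0.17 ± 0.14 for Kcnn2, 0.11 ± 0.15 for Kcng1, 0.08 ± 0.15 for Kcnab2, 0.08 ± 0.20 for Kcne2, 0.01 ± 0.23 for Kcnn3, -0.002 ± 0.27 for Kcnj2, -0.10 ± 0.19 for Kcnj12, -0.11 ± 0.22 for Kcnf1 and -0.17 ± 0.21 for Kcnn1. Several of these estimates moved by more than 1.5 times when 1 library was left out. Without Male replicate 2, the log2 fold change was 0.08 for Kcnmb4, -0.42 for Kcnk1, -0.55 for Kcnip2 and 0.54 for Kcnv2. Without Female replicate 4, it was 0.17 for Kcnmb4 and 0.52 for Kcnj3. With any 1 library left out, estimates ranged over 0.21 to 0.52 for Kcnj3, 0.13 to 0.29 for Kcnq1, 0.13 to 0.34 for Kcnt2, 0.06 to 0.32 for Kcnd2, -0.55 to -0.13 for Kcnip2 and -0.47 to -0.08 for Kcnk1. All of these errors are standard errors of the edgeR fit, and Kcnj8 and Kcnma1 had too few counts to be tested.

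**Figure D5:**
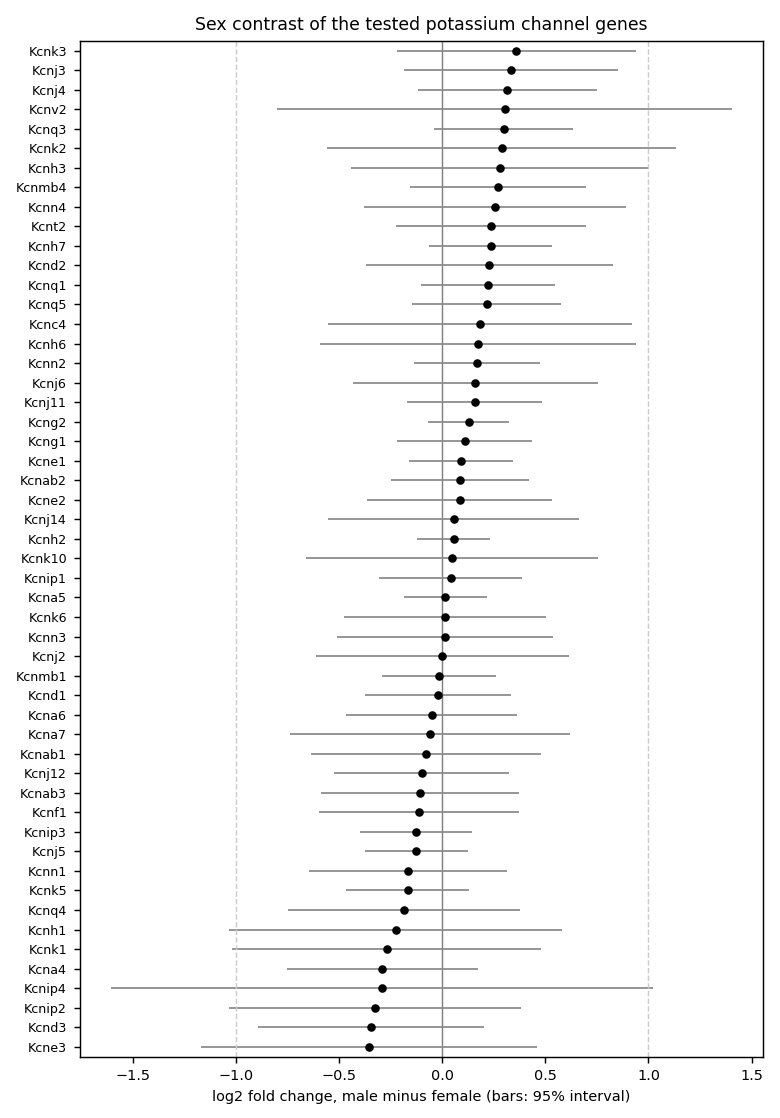
Log2 fold change, male minus female, of 52 tested potassium channel genes; points are estimates, horizontal bars 95% intervals and dashed lines a 2-fold difference in either direction. Every interval crosses 0, from Kcnk3 at 0.36 to Kcne3 at -0.36.

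Described as lists, the 23 channel genes known from the heart included 18 with a mean of at least 1 CPM. Of the 21 tested, 13 were higher and 8 lower in males, where 52.9% of all genes tested were higher. Of the list 0 were called, where 0.0366% of all genes tested were. The median log2 fold change was 0.05, against 0.01 over all genes tested. The summed level of the 23 genes was 401 to 422 CPM in male and 375 to 413 CPM in female libraries. The other genes of the pathway were given by a list of 18 partners and regulators, of which 12 were tested. Of these, 8 were higher and 4 lower in males and 0 were called, beside the same shares over all genes tested. Calmodulin, the calcium sensor bound by several of these channels, was the most abundant partner, with Calm2 at 315 ± 37.0 RPKM and Calm3 at 177 ± 12.6 RPKM. The transcription factors Irx3 and Irx5, known for setting potassium channel gradients in the ventricular wall, averaged 11.2 ± 0.547 RPKM and 5.44 ± 0.747 RPKM. Rest, a repressor of neuronal channel genes, averaged 8.04 ± 1.95 RPKM, with Male replicate 2 at 12.6 RPKM and the other libraries at 6.33 to 8.13 RPKM. Nedd4l, a ubiquitin ligase that removes channels from the membrane, averaged 5.70 ± 0.440 RPKM. Akap9, which tethers protein kinase A to Kcnq1, is named after its values were seen. It was the 1 of the 12 with an unadjusted edgeR p below 0.05, where 2.24% of all genes tested passed. Akap9 had 55.5, 72.7, 51.9 and 56.2 CPM in Male replicates 1 to 4, against 52.3, 50.4, 48.1 and 46.3 CPM in Female replicates 1 to 4. Male replicate 2 was the highest library, and Male replicate 3 lay below Female replicate 1. Akap9 averaged 59.1 ± 9.28 CPM in male and 49.3 ± 2.63 CPM in female libraries, a log2 fold change of 0.26 ± 0.11 with an adjusted p of 0.9995. Without Male replicate 2 the log2 fold change was 0.15.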

How the data were processed

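Gene counts of 4 male and 4 female heart libraries were used as deposited. Per the submitters' processing notes, reads were trimmed and aligned by the authors with tools that include STAR 2.5.2b and Trimmomatic 0.36, on GRCm38 (mm10), and featureCounts (Subread 1.5.2) is named for counting. Neither annotation release nor strand setting is given in the sources used here, and the kit named in the labels is not described as stranded. The authors' deposited normalized signal, the counts divided by 1 factor per library for the 16460 genes with a total above 80 counts, served only as an alternative.

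In R 4.3.3, edgeR 4.0.16 was fitted to the whole table by its robust quasi-likelihood method (male minus female, 2-sided) after TMM scaling and filterByExpr (minimum count 10), with Benjamini-Hochberg adjustment over the 16377 genes tested and calls at an adjusted p below 0.05. RPKM is TMM-scaled CPM per kilobase of the deposited exon length, and log2 CPM used a prior count of 2. Limma 3.58.1 (voom) and DESeq2 1.42.0 were alternatives, with other scalings, other filters, the replicate number as a block and libraries left out. The fit was tested on simulated data. Replicates of a sex differed by a chi-square per gene of 7.93 or more, and each was taken as 1 sample. This value measures only difference beyond counting error, so it cannot tell whether libraries came from separate litters. Total counts of 20105913 to 51134291 limit genes of few counts.

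The genes named were the 12 highest by RPKM, the leading gene of each subfamily with a tested gene, the cardiac list, the 3 smallest p in each direction and the 4 largest and 4 smallest spreads; a few of these genes are not reported here. Genes named outside this rule (Kcna1, Kcna6, Kcna10, Kcne3, Kcnip1, Kcnj1, Kcnk6, Kcnk9, Kcnk18, Kcnn4, Kcnq5 and the partner Akap9) were chosen after their values were seen. The genes described, the lists and the pairs were chosen with earlier results of these data known.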

Additional observations from a re-analysis of the deposited data

Results flagged for a closer look

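Within each sex, the highest and lowest of the 4 libraries were compared with the rest by Dixon's criterion in 66 groups of values; chance passes about 1 in 20 such groups. Kcnk3, the acid-sensitive leak channel, was 78.8 CPM in Male replicate 2, while the other 3 male libraries lay between 34.0 and 38.7 CPM. The gap was 0.895 of the whole male range. Kcnj12, a strong inward rectifier pore, was 2.92 CPM in Female replicate 2, while the other 3 female libraries lay between 2.24 and 2.30 CPM, with a gap of 0.910 of the whole female range. Kcnj12 had only 45 to 145 counts per library. Its SD of log2 CPM over all libraries was 0.224, where counting error alone gives 0.168. These were the 2 flags in the 66 groups.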

How the results depend on the processing

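The number of potassium channel genes called between the sexes was 0 in all 17 alternatives, with a lowest adjusted p of 0.835 (without Male replicate 3). The count of genes with a mean of at least 1 CPM was 40 to 42 with a library left out. The median SD of log2 CPM, 0.265, moved to 0.293 with library size alone and to 0.232 without Male replicate 2 and Female replicate 1 together, and was 0.253 to 0.283 with 1 library left out. With summed CPM in place of RPKM, the share of voltage-gated pores was 38.6%, of inward rectifiers 20.4% and of silent modifiers 18.2%. Inward rectifiers then stood above silent modifiers. Auxiliary subunits held 11.4%, two-pore channels 8.74% and calcium- or sodium-activated channels 2.66% of summed CPM. Gene length enters only the RPKM.

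Of 624 log2 fold changes of named genes under alternatives, 586 kept their direction and 38, from 12 genes, turned; none of the 12 was called, and the cause was not tested. With 1 library left out, values ranged over -0.0267 to 0.48 for Kcnk3, -0.0448 to 0.0476 for Kcna5, -0.11 to 0.0566 for Kcnmb1, -0.32 to 0.0607 for Kcnf1 and -0.10 to 0.45 for Kcnk2. They ranged over -0.18 to 0.0178 for Kcnj12, -0.18 to 0.21 for Kcnj2, -0.0187 to 0.15 for Kcne2, -0.0900 to 0.0988 for Kcnd1, -0.11 to 0.18 for Kcnn3 and -0.21 to 0.54 for Kcnv2. Without Male replicate 2 and Female replicate 1 together, the values were -0.0257 for Kcnk3, -0.0557 for Kcna5, 0.0142 for Kcnf1, -0.0486 for Kcnab2, 0.0235 for Kcnj2, -0.0152 for Kcne2, 0.0687 for Kcnd1 and -0.17 for Kcnn3. With library size alone, the values were -0.0201 for Kcna5 and -0.0312 for Kcnn3. With no filter on low counts, the values were -0.0102 for Kcna5 and -0.0127 for Kcnn3. With RLE factors, the value was 0.00259 for Kcnj2. With a filter at 1 CPM in 4 libraries, the value was 0.00632 for Kcnj2. With limma on the authors' normalized signal, the values were 0.00331 for Kcnj2 and 0.00344 for Kcnd1.

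With the replicate number as a block, 0 potassium channel genes and 5 of all genes were called, against 0 and 6 without the block. Same-numbered male and female libraries had correlations of -0.417 to -0.00616 in their deviations from the mean of their sex. Libraries of unlike number ranged from -0.743 (Male replicate 2 and Female replicate 4) to 0.682 (Male replicate 3 and Female replicate 4). Libraries that stand apart weigh on such values, which cannot tell whether same-numbered libraries shared a litter or a batch.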
